A study of Mus musculus with 6 samples.

Results

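The genes examined here encode the receptors with which platelets first hold on to a damaged vessel wall: the 4 subunits of the GPIb-IX-V complex (Gp1ba, Gp1bb, Gp9 and Gp5), the collagen receptor GPVI (Gp6), the podoplanin receptor CLEC-2 (Clec1b), and 2 further platelet surface proteins, TLT-1 (Treml1) and the thrombin receptor PAR3 (F2rl2). They were taken by gene symbol from the deposited tables, where each of the 8 symbols matched 1 of 55573 genes. All 8 passed the filter on low counts and were among the 16493 genes tested. RNA had been sequenced from mouse samples labelled as megakaryocytes, the cells that shed platelets, in 2 groups of 3 libraries: mice lacking the membrane transporter ABCC4 (Abcc4-/-) and wild-type (WT) mice. The sample titles also hold the letters BM and CD41, and CD41 is a surface protein of megakaryocytes and platelets. Neither label gives a treatment. The age and strain of the mice, the deleted part of Abcc4, how the cells were selected and whether each library came from its own animal are not given in the sources used here, so the p-values measure the spread between these libraries, which may be technical.

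GPIb-IX-V binds von Willebrand factor through GPIb alpha and slows platelets in fast-flowing blood, and in humans its loss causes Bernard-Soulier syndrome, a bleeding disorder with giant platelets. GPVI binds collagen and signals through the Fc receptor gamma chain, whereas CLEC-2 carries its own signalling motif; both feed into the kinase Syk. These genes are switched on as megakaryocytes mature, under GATA1 and ETS-family factors such as FLI1.

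Total counts were 67009925 to 99294493 in Abcc4-/- libraries and 50440239 to 55123512 in WT libraries. Values are given as CPM, the count scaled to the library total with trimmed-mean (TMM) factors, and a floor of 3 counts corresponded to 0.0304 to 0.0453 CPM in Abcc4-/- and 0.0546 to 0.0591 CPM in WT libraries. Abcc4 itself stood at 61.0 ± 1.13 CPM in Abcc4-/- and 73.9 ± 1.96 CPM in WT libraries (SD, n = 3 each; log2 fold change -0.28, SE 0.05, edgeR adjusted p = 0.0026), so most of its transcript was still counted, and this does not check the genotype. All 11 megakaryocyte and platelet markers were detected in each library, and their summed level was 206 to 245 CPM in Abcc4-/- and 296 to 352 CPM in WT libraries. The 10 neutrophil markers summed to 38600 to 41200 CPM in Abcc4-/- and 22000 to 28500 CPM in WT libraries, and the 5 B cell markers to 636 to 714 CPM in Abcc4-/- and 349 to 477 CPM in WT libraries. In every library, though labelled as megakaryocytes, the neutrophil sum was far above the megakaryocyte sum. No marker of the 12 cell types examined was at 0 in any library.

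All receptor genes but Gp6 and Clec1b were called lower in Abcc4-/- libraries. Of the 8, 6 fell and 0 rose (edgeR quasi-likelihood test, Benjamini-Hochberg adjusted p below 0.05), against 8.68% of all tested genes called lower and 8.61% called higher. The receptor genes were chosen with earlier results of these data known, so this count is not an independent excess over those shares. The 6 that fell were Gp1ba, Gp1bb, Gp9, Gp5, Treml1 and F2rl2, by 0.45 to 0.98 on the log2 scale, and in each of them every Abcc4-/- library lay below every WT library, as it did for 18.3% of all tested genes (36.8% did not overlap in either direction). Gp6 was near the limit of detection, Clec1b overlapped between the groups, and the fall of Gp1bb is uncertain because its exons are shared with Sept5, which rose. Markers of several cell types moved in the same libraries, and their part in these calls was not tested. Of the marker lists, 6 of 11 megakaryocyte, 3 of 3 eosinophil and 4 of 5 stem and progenitor markers were called lower in Abcc4-/-, and 7 of 10 neutrophil (with 1, Mpo, lower), 4 of 5 B cell and 3 of 5 T and NK cell markers were called higher. The calls were thin: without Abcc4-/- replicate 1, F2rl2 was the only receptor gene still called, and over all genes 1821 were called, against 2852 with every library. Without Abcc4-/- replicate 2 or WT replicate 2, 3 of the receptor genes were called. In RNA of whole samples, fewer cells of a type and less RNA per cell cannot be told apart.

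**Figure D1:**
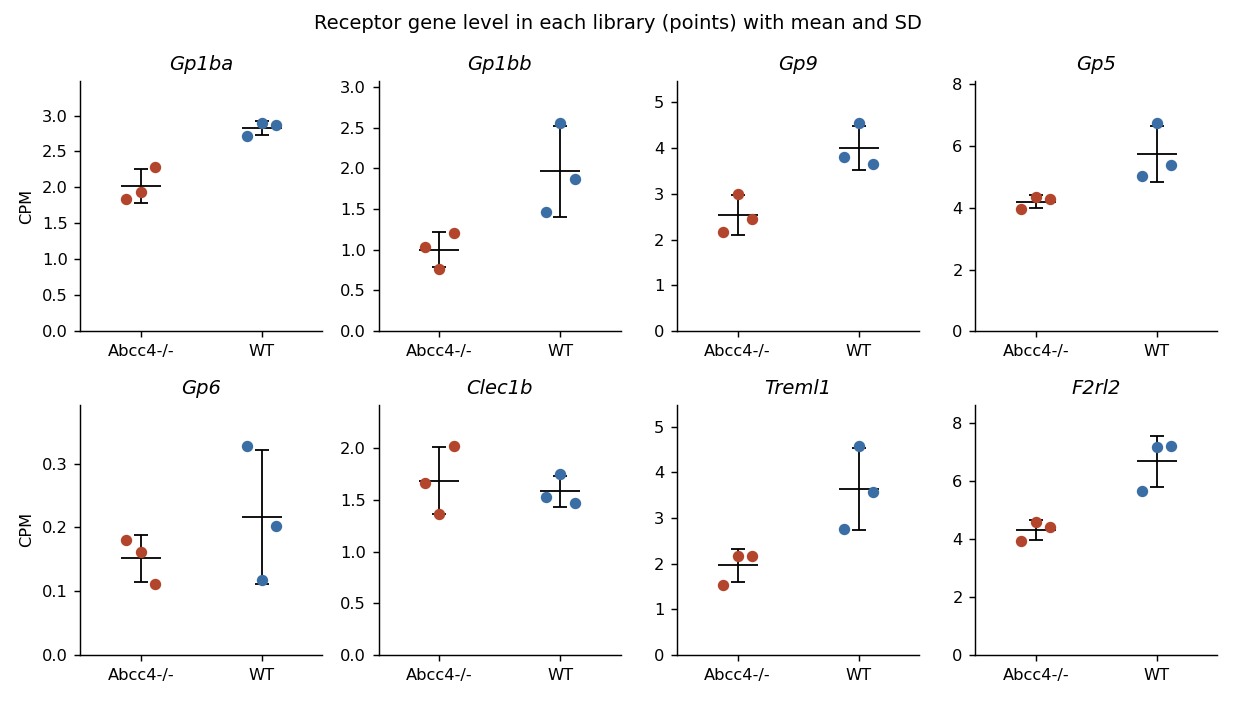
Level of each receptor gene in CPM in the 3 Abcc4-/- libraries (left in each panel) and the 3 WT libraries (right); points are libraries, the bar is the mean and the whiskers the SD. The groups do not overlap for Gp1ba, Gp1bb, Gp9, Gp5, Treml1 and F2rl2, and overlap for Gp6 and Clec1b.

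Gp1ba (ENSMUSG00000050675.7, chromosome 11, positions 70639122 to 70642036 on the plus strand of GRCm38) encodes GPIb alpha, the subunit that binds von Willebrand factor and thrombin. Its level was 1.84, 1.94 and 2.29 CPM in Abcc4-/- replicates 1 to 3, against 2.71, 2.90 and 2.87 CPM in WT replicates 1 to 3. The WT libraries lay close together and the Abcc4-/- libraries all lay beneath them. The log2 fold change was -0.48 (SE 0.14, 95% interval -0.78 to -0.18; edgeR adjusted p = 0.0312). The call ended when any library but Abcc4-/- replicate 3 was left out (adjusted p up to 0.119) and on log2(TPM + 0.1) (0.057).

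Gp9 (ENSMUSG00000030054.4, chromosome 6, positions 87778072 to 87779768, plus strand) encodes GPIX, the small subunit needed for the complex to reach the cell surface. It stood at 2.16, 3.00 and 2.45 CPM in Abcc4-/- libraries, against 3.80, 4.55 and 3.64 CPM in WT libraries. The highest Abcc4-/- library, replicate 2, stayed below the lowest WT library. The log2 fold change was -0.65 (SE 0.15, 95% interval -0.98 to -0.32; edgeR adjusted p = 0.012), and the call ended without Abcc4-/- replicate 1 (0.054).

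Gp5 (ENSMUSG00000047953.7, chromosome 16, positions 30307685 to 30310779, minus strand) encodes GPV, the subunit that thrombin cleaves from the platelet surface. Its levels were 3.95, 4.35 and 4.3 CPM in Abcc4-/- libraries, and 5.04, 6.76 and 5.4 CPM in WT libraries. WT replicate 2 stood above the other WT libraries, and the groups were apart. The log2 fold change of -0.45 (SE 0.12, 95% interval -0.71 to -0.18; edgeR adjusted p = 0.0267) was the smallest of the 6 that fell. Its call ended without any Abcc4-/- replicate or WT replicate 2 (adjusted p up to 0.101) and on both TPM scales (0.0514 and 0.0517).

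Gp1bb (ENSMUSG00000050761.4, chromosome 16, positions 18620317 to 18622403, minus strand) encodes GPIb beta, which is linked to GPIb alpha by disulfide bonds, and its own value was the hardest to read. It had 1.03, 0.77 and 1.2 CPM in Abcc4-/- libraries, against 1.46, 2.56 and 1.87 CPM in WT libraries, a log2 fold change of -0.98 (SE 0.23, 95% interval -1.49 to -0.46; edgeR adjusted p = 0.0158). In the annotation, 1902 of its 2087 exonic bases (91.1%) are also exons of Sept5, a septin gene on the same strand, and 867 (41.5%) are exons of Gm49601, a gene model with exons over both Sept5 and Gp1bb. Since they lie on the same strand, reads within the shared bases cannot be assigned to 1 gene by strand. Reads in exons outside Gp1bb can be told from those of Gp1bb. Several of those exons are the same in Sept5 and Gm49601, so the values of these genes also depend on how reads were divided. Both overlapping genes moved the other way: Sept5 rose to 74.2 ± 4.32 CPM in Abcc4-/-, against 52.9 ± 9.04 CPM in WT libraries (SD, n = 3 each; log2 fold change 0.49, SE 0.12, edgeR adjusted p = 0.0366), and Gm49601 rose to 5.25 ± 0.727 CPM in Abcc4-/-, against 3.82 ± 0.514 CPM in WT (log2 fold change 0.46, SE 0.13, adjusted p = 0.0357).

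Gp1bb took 1.35%, 0.895% and 1.51% of the counts assigned to the 3 overlapping genes in Abcc4-/- replicates 1 to 3, and 2.38%, 3.82% and 3.89% in WT replicates 1 to 3. Since the value for Gp1bb depends on how the shared reads were divided, it is uncertain. The call for Gp1bb as deposited also ended without Abcc4-/- replicate 1 or 2 or WT replicate 2 (adjusted p up to 0.0631). The call for Sept5 ended without any Abcc4-/- replicate or WT replicate 1 (up to 0.11) and with no filter on low counts (0.128), and that for Gm49601 without 4 of the 6 libraries (up to 0.161) and on both TPM scales (0.0812 and 0.0898).

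**Figure D2:**
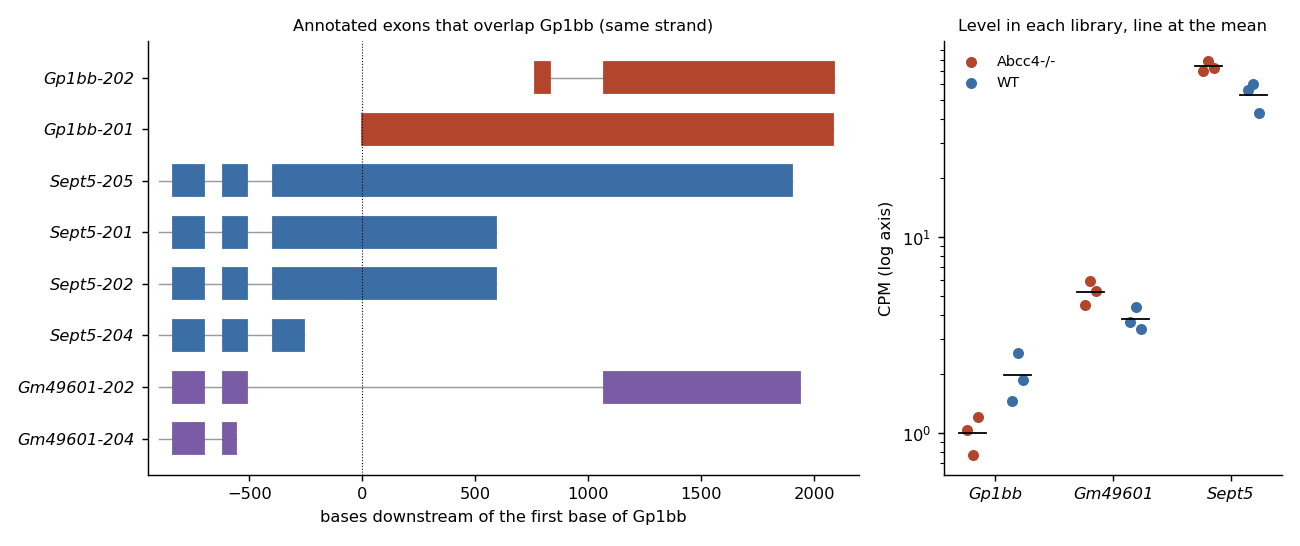
Left, annotated exons (boxes) of the transcripts that overlap or end near Gp1bb, by distance in bases from the first base of Gp1bb, cut off upstream of the plotted range; right, level of Gp1bb, Gm49601 and Sept5 in each library in CPM on a log axis, Abcc4-/- left of WT, with a line at the mean. A single Sept5 exon covers most of Gp1bb, and Gp1bb is lower in Abcc4-/- libraries while the other two genes are higher.

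Treml1 (ENSMUSG00000023993.7, chromosome 17, positions 48359916 to 48367176, plus strand) encodes TLT-1, a receptor kept in alpha granules that binds fibrinogen after platelets are activated. It stood at 1.54, 2.17 and 2.17 CPM in Abcc4-/- libraries and at 2.77, 4.57 and 3.58 CPM in WT libraries. The WT libraries were widely spread, and still all above the Abcc4-/- libraries. Apart from Gp1bb, this was the largest change among the receptor genes (log2 fold change -0.89, SE 0.20, 95% interval -1.32 to -0.45; edgeR adjusted p = 0.0127), and the call ended without Abcc4-/- replicate 1 (0.051).

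F2rl2 (ENSMUSG00000021675.4, chromosome 13, positions 95696853 to 95702739, plus strand) encodes PAR3, which in mouse platelets holds thrombin so that it can cleave the signalling receptor PAR4. Its levels were 3.92, 4.57 and 4.4 CPM in Abcc4-/- libraries, against 5.66, 7.15 and 7.18 CPM in WT libraries. The lowest WT library, replicate 1, was clear of every Abcc4-/- library. The log2 fold change was -0.63 (SE 0.12, 95% interval -0.89 to -0.375; edgeR adjusted p = 0.00393), and F2rl2 kept its call under each alternative tried, with adjusted p up to 0.025.

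Clec1b (ENSMUSG00000030159.15, chromosome 6, positions 129397297 to 129409335, plus strand) encodes CLEC-2, which in the mouse is also known from some myeloid cells. It had 1.67, 1.37 and 2.02 CPM in Abcc4-/- libraries, against 1.53, 1.75 and 1.47 CPM in WT libraries. The Abcc4-/- libraries lay on both sides of the WT libraries. The log2 fold change was 0.09 (SE 0.18, 95% interval -0.30 to 0.48; edgeR adjusted p = 0.782), and its sign turned on the TPM scales (-0.06 and -0.09) and without Abcc4-/- replicate 3 (-0.06). The lower end of this interval lay above the change fitted for each of the 6 genes that fell, while their own intervals reached up to -0.18.

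The 2 genes without a call had different depths behind them. Clec1b had 80 to 163 counts per library. Gp6 (ENSMUSG00000078810.4, chromosome 7, positions 4363965 to 4397744, minus strand) had 12, 16 and 9 counts in Abcc4-/- replicates 1 to 3, against 18, 6 and 11 counts in WT replicates 1 to 3, above a floor of 3 counts in each library. That was 0.181, 0.162 and 0.111 CPM in Abcc4-/-, against 0.327, 0.118 and 0.202 CPM in WT libraries. The groups overlapped, and the interval of the log2 fold change ran from -1.45 to 0.40 (estimate -0.52, SE 0.42; edgeR adjusted p = 0.439; exact permutation test of CPM, two-sided p = 0.4), so a change of the size seen in the other genes was not detectable at this depth. For Clec9a, which shares 184 exonic bases (3.6%) with Clec1b, the groups were 10.5 ± 0.203 CPM in Abcc4-/- and 11.5 ± 0.721 CPM in WT libraries (SD, n = 3 each; log2 fold change -0.12, edgeR adjusted p = 0.277).

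**Figure D3:**
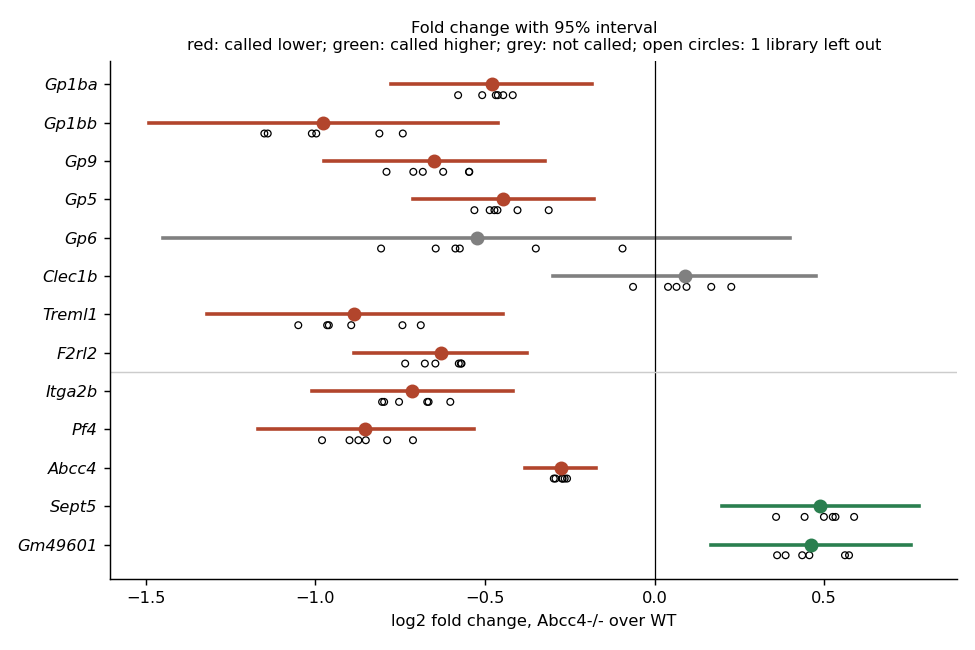
Log2 fold change of Abcc4-/- over WT libraries (filled points) with its 95% interval (lines) for the 8 receptor genes and, under the grey line, for Itga2b, Pf4, Abcc4, Sept5 and Gm49601; open circles are the values with 1 library left out. Except for Gp6 and Clec1b, the intervals of the receptor genes end below 0, and Sept5 and Gm49601 lie above 0.

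The bases before the start sites are shown for some of the genes that fell, Gp1ba, Gp9, Gp5 and F2rl2, and for Clec1b as a gene without a call. Of the genes that fell, those printed are the ones that held both patterns marked below. Treml1, which also fell, held GGAAG but not GATAA and is not printed. The sequences are from RefSeq (GRCm38.p6), read 5′ to 3′ on the gene's strand and end before the first annotated exon: Gp1ba at chr11:70638872.0-70639121.0, plus strand; Gp9 at chr6:87777820.0-87778069.0, plus strand; Gp5 at chr16:30310782.0-30311031.0, minus strand; F2rl2 at chr13:95696670.0-95696852.0, plus strand; Clec1b at chr6:129397047.0-129397296.0, plus strand. Capitals mark the letters GATAA or their reverse complement TTATC, the core that GATA factors recognise, and GGAAG or its reverse complement CTTCC, a core of ETS factors; the 2 patterns can share 1 letter.
Gp1ba: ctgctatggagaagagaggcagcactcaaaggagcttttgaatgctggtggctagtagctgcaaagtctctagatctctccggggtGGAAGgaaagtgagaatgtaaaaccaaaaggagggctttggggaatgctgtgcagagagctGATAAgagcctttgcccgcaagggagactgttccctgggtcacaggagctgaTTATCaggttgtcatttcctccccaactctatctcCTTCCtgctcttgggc
Gp9: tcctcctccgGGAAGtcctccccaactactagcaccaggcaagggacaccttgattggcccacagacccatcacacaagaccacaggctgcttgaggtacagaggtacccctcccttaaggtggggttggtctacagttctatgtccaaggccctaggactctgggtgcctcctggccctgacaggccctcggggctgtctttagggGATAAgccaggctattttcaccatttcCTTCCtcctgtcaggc
Gp5: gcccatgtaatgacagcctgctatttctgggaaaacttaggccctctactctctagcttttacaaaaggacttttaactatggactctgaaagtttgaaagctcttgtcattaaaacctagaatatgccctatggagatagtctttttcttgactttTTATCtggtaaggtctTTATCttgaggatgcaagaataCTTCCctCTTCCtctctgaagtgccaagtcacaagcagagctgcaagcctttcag
F2rl2: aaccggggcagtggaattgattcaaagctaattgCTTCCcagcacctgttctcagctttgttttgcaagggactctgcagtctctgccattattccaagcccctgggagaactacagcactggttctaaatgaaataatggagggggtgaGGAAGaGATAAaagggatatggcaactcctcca
Clec1b: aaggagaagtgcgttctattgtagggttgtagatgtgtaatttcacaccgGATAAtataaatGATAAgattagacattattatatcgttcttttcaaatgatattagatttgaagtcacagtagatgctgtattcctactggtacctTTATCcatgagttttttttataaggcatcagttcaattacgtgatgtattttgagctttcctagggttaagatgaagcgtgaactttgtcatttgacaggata

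Gp1ba, Gp9 and Gp5 each held both patterns within 250 bases, as did 13.2% of 32851 windows of that length before RefSeq start sites. F2rl2 held both within 183 bases, as did 8.3% of those windows cut to their first 183 bases. That cut leaves out the bases nearest the RefSeq start sites. Gp1ba, Gp9, Gp5 and F2rl2 were printed because they held both patterns, so these shares do not measure an excess. Clec1b held GATAA 3 times and GGAAG 0 times. Of the genes whose sequence is not printed, Gp6 held GATAA once and GGAAG 0 times. Treml1, which fell, held GGAAG once and GATAA 0 times, so the printed sequences do not stand for all genes that fell. GATAA was present in 22.6% and GGAAG in 64.1% of the windows of 250 bases, counting those that held both. The window of Gp1bb lies within exons of Sept5 and was not used. Such matches describe the letters and do not show binding.

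Levels between genes were compared in the deposited TPM, which divide counts by transcript length. In Abcc4-/- libraries Gp9 was highest at 4.75 ± 0.836 TPM, apart from Gp5 at 2.71 ± 0.197, and Treml1 (2.45 ± 0.512), F2rl2 (2.40 ± 0.229) and Clec1b (1.82 ± 0.47 TPM) followed with ranges that overlapped between neighbours (SD, n = 3 each). Gp1bb at 1.21 ± 0.135 and Gp1ba at 1.08 ± 0.144 TPM overlapped each other and lay apart from Clec1b, and Gp6 stood at 0.0667 ± 0.0379 TPM. In WT libraries Gp9 was again highest at 7.87 ± 0.765 TPM. Treml1 (4.82 ± 1.11), F2rl2 (3.94 ± 0.563), Gp5 (3.89 ± 0.567), Gp1bb (2.79 ± 0.885) and Clec1b (1.91 ± 0.259 TPM) came next, each overlapping its neighbour, then Gp1ba at 1.57 ± 0.0557 and Gp6 at 0.08 ± 0.0458 TPM, each apart from the gene before it. The TPM of Gp6 did not follow its counts (9 counts gave 0.11 TPM in Abcc4-/- replicate 3 and 16 counts gave 0.05 TPM in replicate 2), and its annotation holds 2 transcripts.

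Within the complex, the TPM ratio of subunits overlapped between the genotypes. Gp9 stood at 3.79 to 5.39 times Gp1ba in Abcc4-/- libraries and 4.55 to 5.61 times in WT libraries. Gp5 stood at 2.29 to 2.69 times Gp1ba in Abcc4-/- and 2.22 to 2.88 times in WT libraries. Gp1bb stood at 1.02 to 1.3 times Gp1ba in Abcc4-/- and 1.21 to 2.3 times in WT libraries, with the doubt about its counts given above.

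The receptor genes were then set against other genes of the lineage in the same library. Itga2b, which encodes CD41, had 80.5, 107 and 101 CPM in Abcc4-/- libraries, against 138, 169 and 167 CPM in WT libraries (log2 fold change -0.72, SE 0.12, edgeR adjusted p = 0.0106). Pf4, a chemokine of alpha granules, had 15.3, 17.3 and 17.9 CPM in Abcc4-/- libraries, against 24.8, 36.2 and 30.4 CPM in WT libraries (log2 fold change -0.85, SE 0.14, adjusted p = 0.00663). The median log2 CPM of the 11 megakaryocyte and platelet markers, none of them a receptor gene, was 0.59 lower in Abcc4-/- libraries (2.60 to 2.89, against 3.18 to 3.47 in WT; two-sided exact permutation p = 0.1, again the lowest possible), with 6 of the 11 called lower and 1 higher. The marker called higher was Ppbp (log2 fold change 0.56, edgeR adjusted p = 0.0273). Of the markers not called, Itgb3 (0.05) and P2ry12 (0.34) lay above 0, and Tubb1 (-0.38) and Mpig6b (-0.55) below. These markers were named after their values were seen. The call for Itga2b ended without WT replicate 3 (adjusted p = 0.0667) and with no filter on low counts (0.0504).

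Relative to that median in log2 CPM, the 2 groups overlapped for each receptor gene but Clec1b. Gp9 stood at -1.35 ± 0.297 log2 units in Abcc4-/- and -1.29 ± 0.285 in WT libraries, F2rl2 at -0.59 ± 0.166 in Abcc4-/- and -0.56 ± 0.152 in WT, and Gp1ba at -1.67 ± 0.0265 in Abcc4-/- and -1.78 ± 0.138 in WT (SD, n = 3 each). The differences for Gp1ba, Gp1bb, Gp9, Gp5, Gp6, Treml1 and F2rl2 ran from -0.35 to 0.23 (exact permutation tests, two-sided p = 0.2 to 1 over these 7 of the 8 genes tested). These differences depended on the scale: on log2(TPM + 0.1), Gp1bb stood at -0.799, Treml1 at -0.648, Gp9 at -0.428, F2rl2 at -0.385, Gp1ba at -0.209 and Gp5 at -0.202 relative to the markers (exact permutation p = 0.1 to 0.3, with 0.1, the lowest possible, for Gp1bb and Gp1ba). Clec1b was the exception, at -1.83, -2.13 and -1.86 in Abcc4-/- libraries, against -2.54, -2.40 and -2.89 in WT libraries. Every Abcc4-/- library was above every WT library, by 0.67 on average (two-sided exact permutation p = 0.1, again the lowest possible), and by 0.53 to 0.78 when 1 library was left out, but by 0.205 on log2(TPM + 0.1) (exact permutation p = 0.3). Clec1b itself changed little (log2 fold change 0.09) while the marker median was 0.59 lower, so the gap of 0.67 mostly restates the lower marker median. In the same libraries the neutrophil and B cell markers were higher in Abcc4-/-, as given above, and their part in the Clec1b value was not tested.

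**Figure D4:**
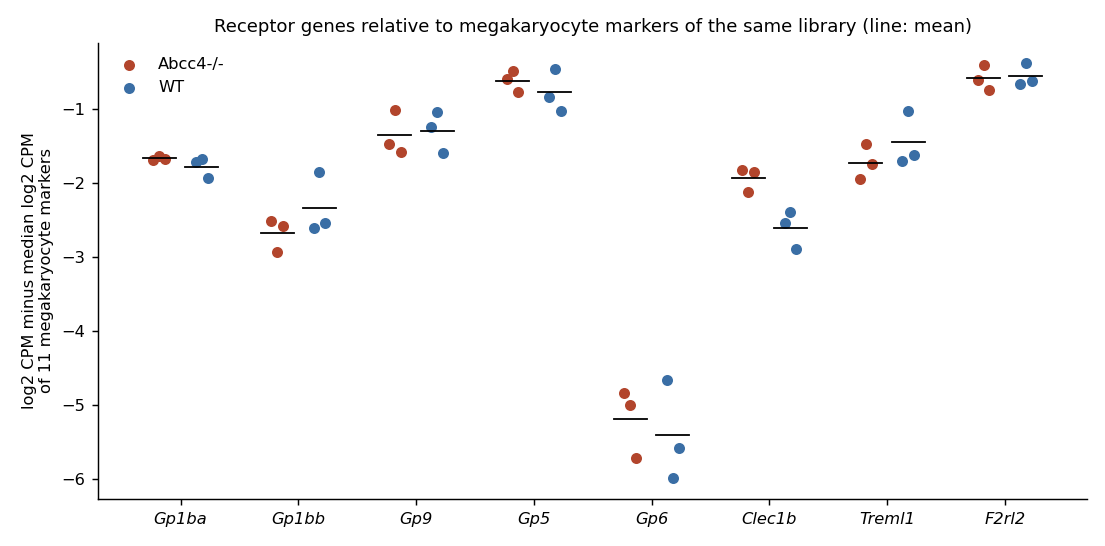
Log2 CPM of each receptor gene minus the median log2 CPM of 11 megakaryocyte markers in the same library, for Abcc4-/- (left of each pair) and WT libraries (right); points are libraries and lines are means. The groups overlap for each gene but Clec1b, where the Abcc4-/- libraries lie above the WT libraries by 0.67 on average.

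Of 9 lineage transcription factors, 2 fell and 1 rose, and the median log2 fold change was -0.08, against 0.00 over all tested genes, of which 17.3% were called in either direction. Runx1 fell to 111 ± 4.84 CPM in Abcc4-/-, against 140 ± 12.7 CPM in WT libraries (log2 fold change -0.33, edgeR adjusted p = 0.00576), and Tal1 fell to 28 ± 1.72 CPM in Abcc4-/-, against 33.6 ± 1.08 CPM in WT (-0.26, adjusted p = 0.012). Nfe2 rose to 244 ± 6.61 CPM in Abcc4-/-, against 208 ± 13.2 CPM in WT (0.23, adjusted p = 0.0191; SD, n = 3 each). Gata1 (log2 fold change -0.16, adjusted p = 0.191) and Fli1 (0.02, adjusted p = 0.854; -0.05 and -0.06 on the TPM scales and -0.03 without WT replicate 1), named after their values were seen, did not pass. Nfe2 lost its call without Abcc4-/- replicate 1 or 2 (up to 0.0854) and on the TPM scales (0.0699 and 0.0737), and Tal1 on the TPM scales (0.0608 and 0.0683).

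Downstream of GPVI and CLEC-2, of 17 signalling genes 1 fell and 2 rose, a share near the 17.3% called in either direction over all tested genes (median log2 fold change 0.01). Dapp1, an adaptor that binds phosphoinositides, fell to 110 ± 7.38 CPM in Abcc4-/-, against 141 ± 6.47 CPM in WT libraries (log2 fold change -0.36, edgeR adjusted p = 0.00231). Syk, the kinase that both receptors use, rose to 596 ± 9.38 CPM in Abcc4-/-, against 523 ± 22.8 CPM in WT (0.19, adjusted p = 0.0339), and the lipid kinase gene Pik3cb rose to 54.5 ± 0.262 CPM in Abcc4-/-, against 48.5 ± 1.77 CPM in WT (0.17, adjusted p = 0.0371; SD, n = 3 each). Both calls ended without each of 5 libraries (up to 0.132) and on the TPM scales (0.31 to 0.447). Syk stood far above Clec1b (1.69 CPM in Abcc4-/- and 1.58 CPM in WT) and Gp6 (0.152 CPM in Abcc4-/- and 0.216 CPM in WT). Neutrophil markers were also higher in Abcc4-/- libraries, and which cells gave these signalling values was not tested. Nor was it tested for Nfe2 above or for Ceacam1, Ptpn6 and Itgb2 below. Fcer1g, the signalling chain of GPVI that myeloid cells also use, stood at 334 ± 11.7 CPM in Abcc4-/- and 300 ± 13.4 CPM in WT libraries (edgeR adjusted p = 0.0795, but 0.0381 with DESeq2 and 0.0446 with the replicate block; named after its value was seen).

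Of 11 genes on a list of inhibitory receptors, phosphatases and other signalling regulators, 0 fell and 2 rose. That is again near the 17.3% called in either direction over all tested genes (median log2 fold change of the list -0.01). Ceacam1, an inhibitory adhesion receptor, rose to 259 ± 6.01 CPM in Abcc4-/-, against 199 ± 9.19 CPM in WT libraries (log2 fold change 0.38, edgeR adjusted p = 0.000687). Ptpn6, which encodes the phosphatase SHP-1, rose to 486 ± 9.05 CPM in Abcc4-/-, against 412 ± 20.9 CPM in WT (0.24, adjusted p = 0.0129), and lost its call without Abcc4-/- replicate 2 (0.0569).

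Among 9 ligands, anchors and sheddases of GPIb-IX-V, 3 fell and 1 rose, against 8.68% called lower and 8.61% higher over all tested genes (median log2 fold change 0.02). Vwf, the main ligand of GPIb alpha, fell to 13.5 ± 2.29 CPM in Abcc4-/-, against 32.2 ± 4.07 CPM in WT libraries (log2 fold change -1.25, edgeR adjusted p = 0.00201). Thbs1, which encodes thrombospondin, fell to 126 ± 16.8 CPM in Abcc4-/-, against 671 ± 193 CPM in WT (-2.41, adjusted p = 0.00539), and the selectin gene Selp to 6.49 ± 0.775 CPM in Abcc4-/-, against 8.75 ± 0.34 CPM in WT (-0.43, adjusted p = 0.0111). Itgb2, the beta chain of the leukocyte integrin Mac-1 that binds GPIb alpha, rose to 818 ± 20.5 CPM in Abcc4-/-, against 702 ± 37.9 CPM in WT (0.22, adjusted p = 0.0232; SD, n = 3 each; named after its value was seen). Selp lost its call without Abcc4-/- replicate 1 or 2 (up to 0.0541) and on the TPM scales (0.643 and 0.661), and Itgb2 without 3 of the libraries (up to 0.105) and on the TPM scales (0.131 and 0.132). Vwf and Selp are also among the 11 markers above.

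Of 7 genes for ligands of GPVI, CLEC-2 and TLT-1, 4 were tested and 0 passed (edgeR; 1 passed without Abcc4-/- replicate 3), and the fibrinogen chains Fga, Fgb and Fgg, with 0 to 1 counts per library, were not tested. Pdpn, which encodes podoplanin, had the smallest p of these (0.386 ± 0.0785 CPM in Abcc4-/- and 0.237 ± 0.00136 CPM in WT libraries; adjusted p = 0.115). The median log2 fold change of the 4 was 0.70, with the collagen genes Col1a1 at 0.77, Col1a2 at 0.68 and Col3a1 at -0.44, and Pdpn at 0.71.

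Beside F2rl2, 10 genes on a list of thrombin and other protease receptors, G proteins and other signalling genes were tested. Of these, 2 fell and 1 rose, against 17.3% called in either direction over all tested genes (median log2 fold change -0.11). With the replicate block, 4 fell. F2r, which encodes PAR1, fell to 18.6 ± 1.98 CPM in Abcc4-/-, against 31.8 ± 2.71 CPM in WT libraries (log2 fold change -0.77, edgeR adjusted p = 0.000266). F2rl1, which encodes the protease receptor PAR2, rose to 1.13 ± 0.208 CPM in Abcc4-/-, against 0.49 ± 0.218 CPM in WT (1.19, adjusted p = 0.0234), and Gna12, a G protein subunit, fell to 91 ± 3.31 CPM in Abcc4-/-, against 103 ± 4.75 CPM in WT (-0.17, adjusted p = 0.0421; SD, n = 3 each). F2rl3, which encodes the PAR4 that PAR3 serves in mouse platelets, stood at 5.83 ± 1.80 CPM in Abcc4-/- and 6.27 ± 0.164 CPM in WT libraries (-0.10, and 0.06 without Abcc4-/- replicate 1; adjusted p = 0.773, named after its value was seen). F2rl1 lost its call without Abcc4-/- replicate 1 or 3 (up to 0.0947) and on log2(TPM + 0.1) (0.0588), and Gna12 without 5 of the 6 libraries (up to 0.162).

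Relatives of TLT-1 and CLEC-2 that other myeloid cells use moved in both directions: of 11, 10 were tested, 2 fell and 2 rose, against 17.3% called in either direction over all tested genes (median log2 fold change -0.02). Trem1, an activating receptor of neutrophils and monocytes, fell to 60.9 ± 4.03 CPM in Abcc4-/-, against 174 ± 11.9 CPM in WT libraries (log2 fold change -1.51, edgeR adjusted p = 5.24e-07). Clec7a, the beta-glucan receptor Dectin-1, fell to 204 ± 4.85 CPM in Abcc4-/-, against 267 ± 31.1 CPM in WT (-0.39, adjusted p = 0.00658), and Trem3 rose to 94.9 ± 5.25 CPM in Abcc4-/-, against 69.5 ± 9.49 CPM in WT (0.45, adjusted p = 0.0136; SD, n = 3 each). Olr1, a lectin-like receptor named after its value was seen, was called higher on counts (0.25, adjusted p = 0.0202) and stood at -0.01 on both TPM scales, and it and Trem3 lost their calls without 3 and 1 of the libraries (up to 0.0976 and 0.0556).

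**Figure D5:**
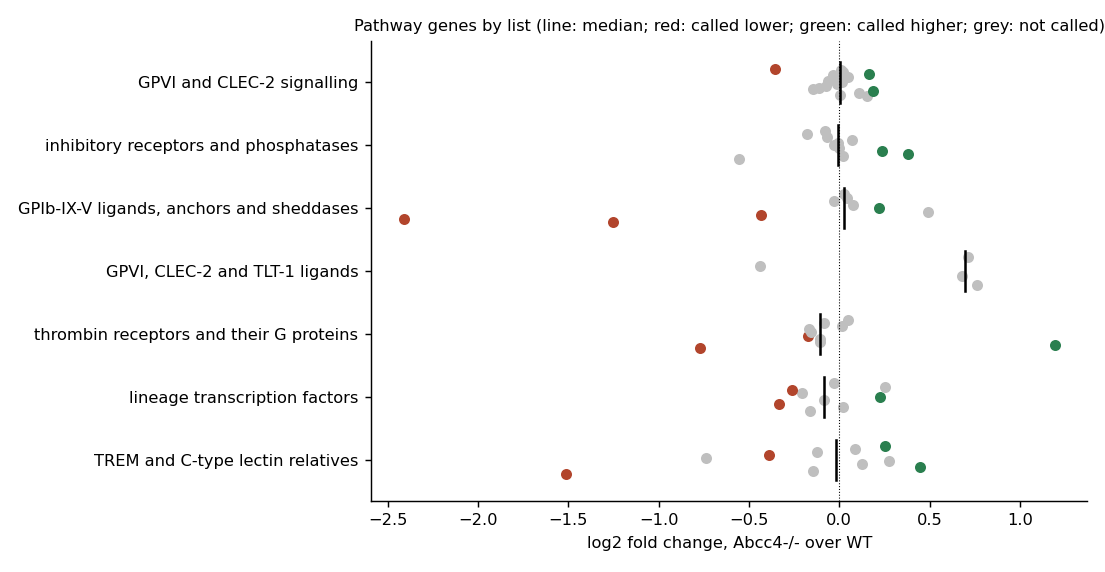
Log2 fold change of Abcc4-/- over WT libraries for each tested gene of the 7 pathway lists; points are genes, coloured by their edgeR call, and black lines are list medians. The medians of each list but that of the GPVI, CLEC-2 and TLT-1 ligands, which is 0.70, lie between -0.11 and 0.02.

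Finally, the genes whose profile over the 6 libraries was closest to the median profile of the 8 receptor genes were sought among 12084 other genes whose log2 CPM averaged 1 or more, by root mean square distance between log2 CPM values centred per gene. The 5 closest were Clstn3, Pbx4, Mycn, Auts2 and Rec8, at distances of 0.0479 to 0.0624 log2 units. Clstn3, a calsyntenin gene, was at 7.23 ± 0.723 CPM in Abcc4-/-, against 10.7 ± 1.19 CPM in WT libraries (SD, n = 3 each). Genes chosen in this way share the lower level in Abcc4-/- libraries by construction. The profile was highest in WT replicate 2 (0.44) and lowest in Abcc4-/- replicate 1 (-0.39).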

How the data were processed

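Both deposited files are the authors' RSEM gene tables, which their names mark as stranded: one holds raw expected counts, the other TPM, scaled by the authors per sample and transcript length. Per the submitters' processing notes, STAR 2.7, RSEM 1.3.1 and mm10 were used; no source used here gives the annotation release. Per the labels' protocols, a strand-specific mRNA kit and paired reads were used. RSEM divides reads that fit several genes, which bears on Gp1bb.

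Groups follow the genotype label and replicate numbers the titles. After 92 spike-in entries with 0 counts were left out, the rounded expected counts entered the quasi-likelihood test of edgeR 4.0.16 under R 4.3.3, with TMM factors, the default filter and p adjusted over all 16493 genes (threshold 0.05). The 95% intervals use the moderated degrees of freedom. Log2 CPM used a prior count of 2. Alternatives were RLE factors, DESeq2 1.42.0, other filters, thinning to the smallest library, the replicate number as a block, limma 3.58.1 on log2(TPM + 1) and log2(TPM + 0.1), where fold changes of low genes are understated, and each library left out. Floors cover counting error only. Positions are from GENCODE M21 (GRCm38), which matched 55094 of 55573 identifiers with version.

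The receptor genes and lists were chosen with earlier results of these data known. The naming rule took the receptor genes, Abcc4, Itga2b, Pf4, genes overlapping them, up to 3 called genes per list (or the smallest p) and the 5 closest profiles; others are marked. Every pair of libraries differed beyond sampling noise (chi-square over its degrees of freedom 11.4 or more).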

Additional observations from a re-analysis of the deposited data

How the results depend on the processing

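The 6 receptor calls held with RLE factors, DESeq2, both other filters, thinning and the replicate block, while 4 to 6 were called over all planned settings that kept the 6 libraries. With 1 library left out, 1 to 5 receptor genes were called lower and 0 higher, and the calls over all genes ranged from 1760 to 2415, with 823 to 1247 higher and 897 to 1265 lower; fewer libraries enter those fits. Over all genes, 1420 were higher and 1432 lower on counts (49.8% higher), while 563 were higher on log2(TPM + 1) (28.7% of the calls) and 559 on log2(TPM + 0.1) (28.1%); the cause was not tested. Summing the counts of Gp1bb, Sept5 and Gm49601, chosen after seeing the data, gave an entry at 0.455 called higher, which put 1 entry higher and 5 lower; Gp1bb holds 0.895% to 3.89% of that sum, so it follows Sept5 and says nothing of Gp1bb.

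Signs turned for values that were not called or lost their call. Clec1b was at -0.0586 on log2(TPM + 1), -0.0934 on log2(TPM + 0.1) and between -0.0635 and 0.226 with 1 library left out. Olr1 was at -0.00575 and -0.00541 on the 2 TPM scales. Fli1 was at -0.0541 and -0.0551 on them and between -0.0282 and 0.0699 with 1 library left out, and F2rl3 between -0.379 and 0.0552. Relative to the megakaryocyte markers, Gp1ba turned to -0.209 and Gp5 to -0.202 on log2(TPM + 0.1), and Gp1ba to -0.0413 with the mean of the markers. On log2(TPM + 0.1) and with the mean of the markers, Gp1bb was at -0.799 and -0.499, Treml1 at -0.648 and -0.432, Gp9 at -0.428 and -0.216, F2rl2 at -0.385 and -0.184 and Clec1b at 0.205 and 0.516. With 1 library left out, Gp9 ranged from -0.232 to 0.0652, Gp6 from -0.0623 to 0.6 and F2rl2 from -0.119 to 0.0561.

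Deviations of same-numbered libraries from their group means correlated at -0.05 to -0.01 over genes, which shows no pairing by replicate number. With 3 libraries per group this cannot exclude one. With the number as a replicate block, 3157 genes were called, against 2852 without it, and 2686 were shared by both fits. In the block fit 6 receptor genes were lower, and Fcer1g was called. Depth limits Gp6, which had 6 to 18 counts per library and was not tested after thinning or under the minimum of 1 CPM.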
